A study of Homo sapiens with 2 samples.

Results

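The zinc finger genes of chromosome 19 that carry the name ZNF and a number were examined in mock-transfected HCT116 cells and in HCT116 cells overexpressing HOXA5 short RNA. A member was a gene of this name, placed on chromosome 19 by RefSeq, that was reached through the NM_ accession of a non-control probe and was well above background on both arrays. RefSeq lists 241 such genes, 230 of them had a probe on the array, and 118 were members, of 11994 genes compared in all. HCT116 is an immortal line grown from a human colon carcinoma. In the mock group the cells were transfected with the pEB vector, an expression plasmid, and in the HOXA5 short group with the same vector carrying HOXA5 short RNA, a non-coding transcript of the HOXA5 locus. The transcript was cloned from HCT116 cells, so the mock cells are not expected to lack it. Both cultures were kept in blasticidin for 2 weeks, an antibiotic that selects cells holding the vector, and total RNA was measured on single-color Agilent arrays, 1 per group. The treatment text of the mock sample also names the HOXA5 short vector, and its title and genotype label set it as the control. Each difference is therefore a value for 1 pair of arrays with no replicate and no test.

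Most of these genes encode proteins with a KRAB domain at one end and a row of C2H2 zinc fingers at the other. The fingers bind DNA, often inside transposable elements, and the KRAB domain recruits TRIM28 (also called KAP1), which brings the histone H3 lysine 9 methyltransferase SETDB1, heterochromatin proteins and histone deacetylases to silence the site. The genes arose by repeated tandem duplication and lie side by side in clusters along chromosome 19, so that neighbors are often close relatives in sequence. Short oligonucleotide probes may not separate the closest relatives, and the probe sequences were not examined here.

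Most ZNF genes of chromosome 19 differed little between the arrays. The value of a gene is its mean log2 difference, HOXA5 short minus mock, after each array was scaled to the 75th percentile of its signals. It had a median of -0.08 over the 118 genes and ran from -0.65 for ZNF283 to 0.55 for ZNF547, and 115 of them (97.5%) lay within 0.5 of 0. None was 2-fold higher and none 2-fold lower, where the share past 2-fold among all genes compared was 0.642% upward and 0.258% downward. In RNA from a whole culture, fewer cells with a transcript and less of it per cell cannot be told apart. Of the 118, 75 lay below 0 and 43 above. This split rests on the scaling, because the median became 0.02 with scaling to the array median and 0.32 with scaling to the spike-ins, which raised every difference by 0.10 and 0.40.

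Set against all genes, the family sat slightly low. The median over all genes was -0.02, so the family median lay 0.06 below it. In the 13 other settings the gap ran from 0.05 to 0.08 in the same direction. Scaling to the array median, to the detected probes or to the spike-ins adds the same constant to every gene. These scalings therefore could not change the gap, which stayed at 0.06 by construction. The remaining settings reuse the same arrays and are not independent checks of it. Of the 118 genes, 67 (56.8%) lay below the median of all genes. The 163 ZNF genes on other chromosomes gave nearly the same picture in the main setting, with a median of -0.06 and 56.4% below the median of all genes. The likeness did not hold in every setting. Without a filter on detection the shares were 50.4% for ZNF genes elsewhere and 60% for the family. For probes above the median of detected signals they were 50% of 66 genes and 60.6% of 33. The other 759 genes of chromosome 19 had a median of -0.02. A background correction by the normexp method put 92 of the 118 genes (78%) below the median of all genes, and 69.3% of the ZNF genes on other chromosomes. Its offset shrinks the differences of dim probes, and the SD of the family was 0.11 with it and 0.22 without. The family median lay 0.07 below that of all genes, so the larger share did not come with a much larger gap.

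**Figure D1:**
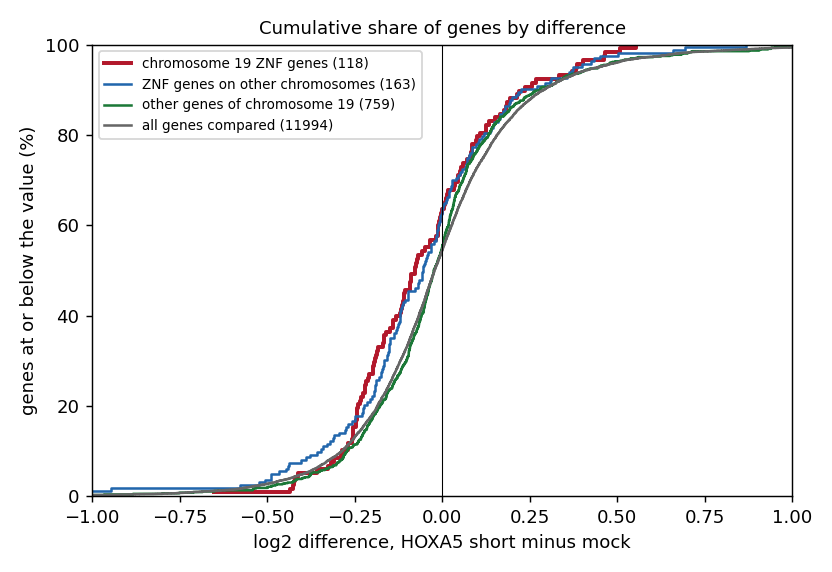
Cumulative share of genes (y axis, percent) at or below a log2 difference, HOXA5 short minus mock (x axis), for the 118 ZNF genes of chromosome 19, the 163 ZNF genes on other chromosomes, the 759 other genes of chromosome 19 and all 11994 genes compared. Both ZNF curves run above the other curves between about -0.25 and 0, with medians of -0.08 and -0.06 against -0.02, and they meet the others at the upper end.

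Among detected genes, the family had a smaller SD than all genes, without a narrower middle. The SD of the log2 difference was 0.22 over the 118 genes and 0.29 over all genes, while with no filter on detection it was 0.44 for both. The lower and upper quartiles were -0.22 and 0.08 for the family and -0.15 and 0.12 for all genes, which lie no further apart. The values of all genes reached further out, from -3.09 to 3.84. The family was dim on these arrays, with a median processed signal of 30.4 (mock) and 37.1 (HOXA5 short), against 104 and 128 for all genes compared. Differences between dim spots scatter more, so the genes were also compared within 3 ranges of signal holding about equal numbers of members. The SD was 0.29 against 0.36 for all genes in the dimmest range, 0.19 against 0.31 in the middle one and 0.17 against 0.26 in the brightest. It was smaller in each of the 3. ZNF genes on other chromosomes had SDs of 0.34, 0.21 and 0.30 in these ranges, so in the middle one they lay close to the family. With spots in uneven zones left out, these being places on the grid where at least 10% of 10 or more well-measured neighboring spots differed 2-fold, the SD was 0.22 against 0.26.

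A second yardstick was the scatter of repeated spots. Some probes were printed in 10 spots, and the SD of the log2 difference of a single spot was 0.58 for signals of 5 to 15, 0.29 for those of 15 to 50, 0.19 for those of 50 to 200 and 0.15 for brighter ones. This SD holds no spread between cultures, labelings or arrays. Each gene was set against the SD of its own mean, which is smaller than that of a single spot where 10 spots or 2 probes were averaged, and 2 SD below means this SD. Of the 118 genes, 6 (5.08%) differed by more than 2 SD, 5 lower and 1 higher, where 12.2% of all genes did. ZNF254, ZNF787, ZNF146, ZNF587 and ZNF14 were the lower ones, and ZNF444 was the higher one. ZNF146, ZNF587 and ZNF14 passed as means of 10 spots, with SDs of 0.06, 0.05 and 0.09, and would not pass 2 SD of a single spot. With scaling to the array median there were 4, of which ZNF146 and ZNF587 were lower and ZNF444 and ZNF865 higher, and the share of all genes was 13.8%. In order of these ranges, 0 of 23, 2 of 52, 1 of 28 and 3 of 15 members passed. Over all genes compared, the shares were 0.446%, 10.1%, 13.3% and 14.3%.

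**Figure D2:**
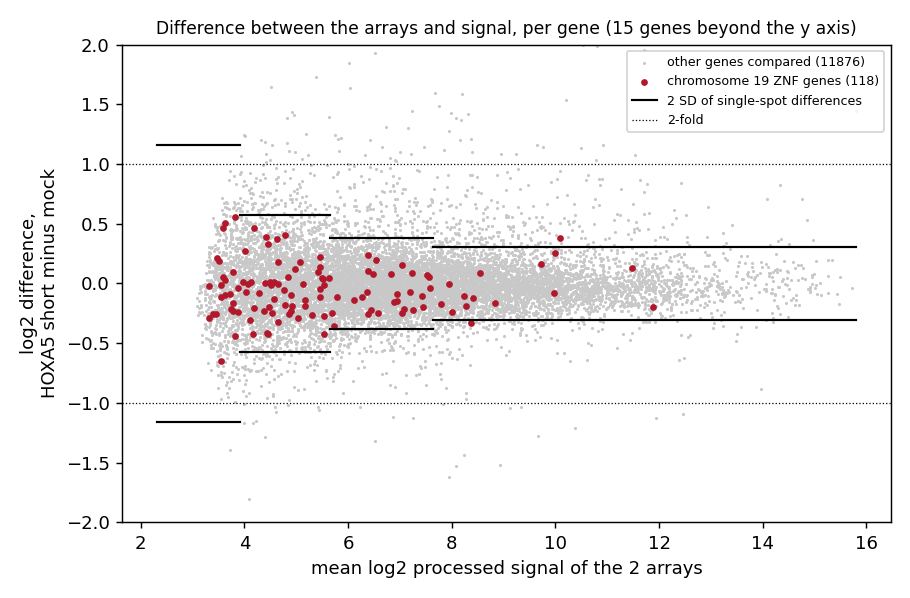
Log2 difference of each gene (y axis, HOXA5 short minus mock) against its mean log2 processed signal on the 2 arrays (x axis), with the 118 ZNF genes of chromosome 19 in red and 11876 other genes in gray. Black lines mark 2 SD of a single-spot difference in each range of signal, with tighter limits for genes with several spots or probes, dotted lines mark 2-fold, and 15 genes lie beyond the y axis. No red point reaches a dotted line, and most lie at the dim end.

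Detection on both arrays was part of the rule for membership, so the share detected is given as a description. Of the 230 genes with a probe, 118 (51.3%) were well above background on both arrays, against 71.5% of ZNF genes on other chromosomes, 65.7% of the other genes of chromosome 19 and 60.5% of all genes. A further 105 (45.7%) were detected on neither array, 3 on the mock array only and 4 on the HOXA5 short array only. A probe that is not well above background has a signal within the array's noise, which does not show that the gene was silent.

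The 7 genes detected on 1 array only have no fold between 2 detected signals. Where the signal on the other array lay under the lowest one well above background there, that lowest one set a bound. For ZNF728, ZNF626 and ZNF224 the undetected signal lay higher. Their values are therefore ratios to a signal within the noise and not limits. ZNF728 was detected with HOXA5 short RNA at a signal of 24.2 (scanner error 3.09) and was not well above background in mock cells at 8.52 (error 1.91). The ratio of its scaled signals was 2.30-fold higher, the 1 value past 2-fold among the 7. Of its 35 well-measured neighbors on the grid 2 were 2-fold apart. ZNF850 was at least 1.34-fold higher and ZNF211 at least 1.11-fold higher, and ZNF808 gave no bound. In the other direction, ZNF626 had a signal of 12.9 (error 2.39) in mock cells and was not well above background at 8.36 (error 2.39) with HOXA5 short RNA. The ratio of its scaled signals was 1.91-fold lower. ZNF749 was at least 1.39-fold lower. ZNF224, a KRAB repressor known as a partner of WT1, had signals of 9.45 (error 1.87) and 8.69 (error 1.97), a scaled ratio 1.34-fold lower. For signals of 5 to 15 the SD of a single-spot log2 difference was 0.58. The ratios of ZNF626 and ZNF224 lay within 2 SD, as did the bounds of ZNF850, ZNF211 and ZNF749. Since some undetected signals lay above the lowest detected one, these bounds are not strict limits. ZNF728 and ZNF626, whose values run opposite ways, both lie in the region of the ZNF91 group.

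Detection was uneven along the chromosome, and the region of the ZNF91 group is given first. The genes were put in order along the chromosome, and a new cluster was begun where more than 10 other genes lay between neighboring ZNF genes, which gave 28 clusters. The 3 neighboring clusters from ZNF737 to ZNF254 had 24 genes on the array, and 9 of them (37.5%) were detected on both arrays, against 109 of 206 (52.9%) in the other clusters together. Low shares were not particular to this region, since the clusters from ZNF565 to ZNF573 and from ZNF283 to ZNF180 stood at 29.2% and 35%. Within the region, the cluster from ZNF492 to ZNF91 had 0 of 5 genes detected on both arrays, with ZNF728 detected on 1, and the clusters on either side had 46.7% and 50%. ZNF91 and ZNF93, the latter outside these 3 clusters, bind and repress retrotransposons of the SVA and LINE-1 families. The signal of ZNF91 was 1.63 (error 1.58) in mock cells and 1.72 (error 1.72) with HOXA5 short RNA, and that of ZNF93 1.69 (error 1.69) and 1.82 (error 1.83). Both signals were about as large as their errors on both arrays, as was that of ZNF43, a close relative, at 1.57 (error 1.57) and 1.71 (error 1.72). The 9 detected genes of these clusters had a median log2 difference of -0.14, or -0.04 with scaling to the array median, from -0.42 for ZNF254 to 0.27 for ZNF729.

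The promoters of these 3 clusters share stretches of sequence, and ZNF85, detected on both arrays, is shown beside ZNF91, detected on neither. The sequences are from RefSeq, build GRCh38.p14, and run 5′ to 3′ along the gene's strand from 250 bases before the start to 50 bases after it. Capitals mark TCCAATCAGG, one of 4 stretches of 10 bases found in at least 80% of the promoters of these clusters and the one found in most of them.
ZNF85 (chr19:20923001-20923300, strand +): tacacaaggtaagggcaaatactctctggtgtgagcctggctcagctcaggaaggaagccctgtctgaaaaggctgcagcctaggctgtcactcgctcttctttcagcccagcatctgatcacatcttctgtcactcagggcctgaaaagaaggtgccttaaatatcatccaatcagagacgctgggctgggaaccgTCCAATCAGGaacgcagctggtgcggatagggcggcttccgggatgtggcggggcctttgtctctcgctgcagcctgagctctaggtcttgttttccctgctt
ZNF91 (chr19:23395422-23395721, strand -): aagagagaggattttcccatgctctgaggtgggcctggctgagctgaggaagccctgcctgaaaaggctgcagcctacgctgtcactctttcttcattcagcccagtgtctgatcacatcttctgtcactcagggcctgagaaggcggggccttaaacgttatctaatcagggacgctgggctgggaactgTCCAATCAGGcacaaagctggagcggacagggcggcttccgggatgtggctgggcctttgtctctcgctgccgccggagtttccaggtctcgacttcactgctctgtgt
This stretch contains CCAAT, the letters of the CCAAT box. Searched on both strands, it stood in 18 of 20 promoters (90.0%) of the 3 clusters, in 22 of 184 (12%) of the other clusters of the family and in 106 of all 27305 promoters in the table (0.388%). Within the 3 clusters, 6 of 8 promoters of detected genes held it, and 11 of 11 of genes detected on neither array. The stretch was searched for after the sequences were seen, and a match is a description of the letters and not a binding site.

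Across the family, promoters held fewer CpG pairs than other genes detected here. A promoter was in the table for 106 of the 118 genes. The median number of CpG pairs in 300 bases was 22, from 6 to 42, against 26 for ZNF genes on other chromosomes, for the other genes of chromosome 19 and for all genes compared, and 14 for all promoters in the table. Among genes detected on neither array the median was 19 in the family (93 promoters) and 9 over all genes. Detected and undetected members of the family thus lay closer together in CpG number than detected and undetected genes at large. In the 3 clusters from ZNF737 to ZNF254 the median was 10 for detected and 12 for undetected genes. The letters CCAAT, on either strand, stood in 53.8% of the 106 promoters, in 43.0% for ZNF genes elsewhere, 37.2% for all genes compared and 35.7% of all promoters. GGGCGG, the GC box, stood in 68.9% against 70.7% for all genes compared and 44.6% of all promoters, and TATAAA in 2.83%, 5.94% and 12%.

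CpG number and the difference between the arrays were nearly unrelated. Over the 106 genes, Pearson's r between CpG number and log2 difference was 0.13 and Spearman's rho 0.10, as a description across genes that share both arrays and much of their sequence. The log2 signal on the mock array gave r = -0.04 and rho = -0.07 over the 118 genes.

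Position along the chromosome gave no clear order. The 8 clusters with at least 5 members held 89 of the 118 genes, and their medians ran from -0.14 for the cluster from ZNF737 to ZNF98 to 0.05 for the one from ZNF628 to ZNF580. Of these medians, 6 lay below the median of all genes. The largest cluster, from ZNF264 to ZNF446, had 26 of 41 genes detected and a median of -0.04, and that from ZNF577 to ZNF331 had 18 of 35 detected and a median of -0.01. The cluster from ZNF565 to ZNF573 had the lowest share detected of the 8, 7 of 24 (29.2%), and a median of -0.13. All 7 genes from ZNF628 to ZNF580 were detected. Of 95 pairs of neighboring members within a cluster, 48 lay on opposite sides of the median of all genes, and the correlation between neighbors was r = -0.12 (rho = -0.14), again as a description, since most genes stand in 2 pairs.

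**Figure D3:**
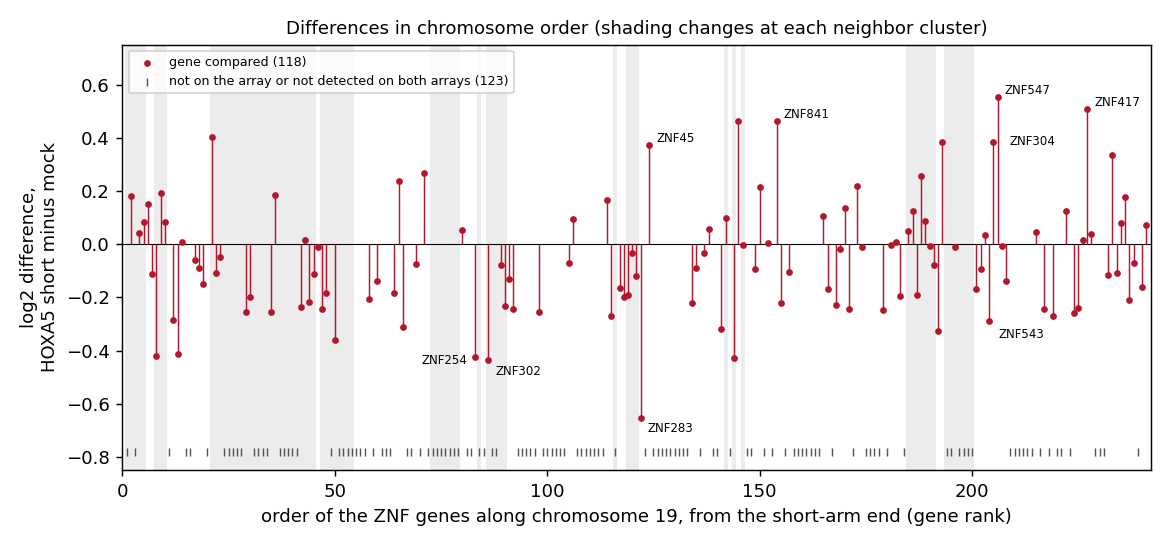
Log2 difference (y axis, HOXA5 short minus mock) of the 118 genes compared, as red points, in the order of all 241 ZNF genes along chromosome 19 (x axis, gene rank), with a change of shading at each neighbor cluster and gray ticks for the 123 genes not on the array or not detected on both arrays. High and low points stand next to each other along the whole axis, as for ZNF283 (-0.65) and ZNF45 (0.37) or ZNF543 (-0.29) and ZNF304 (0.39).

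Several neighbors read far apart. ZNF283 and ZNF45 differed from each other by 1.02, with 3 genes between them, the widest step between neighboring members of a cluster. ZNF543, ZNF304, ZNF547 and ZNF548 follow each other with at most 1 other gene between neighbors, and their log2 differences were -0.29, 0.39, 0.55 and -0.01. ZNF543 turned to 0.11 with spike-in scaling, and ZNF548 turned positive with median and spike-in scaling. Both scalings raise every difference, so they could not turn ZNF304 or ZNF547, which lay above 0. These 2 genes kept their sign in every alternative but came to 0.02 and 0.01 with normexp. None of these 4 passed 2 SD. The promoters of 3 of them are shown because the genes lie nearly side by side and their values lie on both sides of 0, with CpG pairs in capitals, from RefSeq on GRCh38.p14, 250 bases before to 50 after the start.
ZNF543 (chr19:57320222-57320521, strand +): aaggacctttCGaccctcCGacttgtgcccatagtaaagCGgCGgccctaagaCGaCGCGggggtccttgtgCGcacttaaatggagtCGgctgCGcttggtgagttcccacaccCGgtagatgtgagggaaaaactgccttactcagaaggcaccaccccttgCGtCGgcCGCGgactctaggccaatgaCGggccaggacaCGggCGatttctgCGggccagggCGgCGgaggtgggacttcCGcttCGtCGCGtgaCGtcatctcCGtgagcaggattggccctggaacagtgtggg
ZNF304 (chr19:57351021-57351320, strand +): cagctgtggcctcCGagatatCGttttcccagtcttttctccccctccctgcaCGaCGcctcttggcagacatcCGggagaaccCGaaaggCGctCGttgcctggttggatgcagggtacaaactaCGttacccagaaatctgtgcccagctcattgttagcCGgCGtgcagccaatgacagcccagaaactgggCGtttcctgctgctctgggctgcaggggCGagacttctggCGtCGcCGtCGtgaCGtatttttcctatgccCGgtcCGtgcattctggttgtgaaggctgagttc
ZNF547 (chr19:57363301-57363600, strand +): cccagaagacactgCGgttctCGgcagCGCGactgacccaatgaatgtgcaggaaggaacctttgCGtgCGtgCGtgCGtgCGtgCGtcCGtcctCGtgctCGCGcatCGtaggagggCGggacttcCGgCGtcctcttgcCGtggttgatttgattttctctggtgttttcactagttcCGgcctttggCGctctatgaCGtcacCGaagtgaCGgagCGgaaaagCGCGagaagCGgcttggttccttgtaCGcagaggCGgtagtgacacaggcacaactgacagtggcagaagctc
ZNF543 has 27 CpG pairs, ZNF304 20 and ZNF547 30. All 3 hold CCAAT, and GGGCGG is found in ZNF543 and ZNF547 and not in this window of ZNF304. None of these letters separated ZNF543 from both of the others.

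The lowest values belonged mostly to dim genes. Signals are given from here as multiples of the array's 75th percentile, 35.7 (mock) and 44.0 (HOXA5 short). ZNF283 measured 0.371 in mock cells and 0.236 with HOXA5 short RNA, a log2 difference of -0.65, and its signals of 13.2 (error 2.08) and 10.4 (error 2.06) lay in the range where 1 SD of a single spot is 0.58. ZNF302 gave 0.413 and 0.306, a difference of -0.44 that came from 1 of its 2 probes, since these read -0.90 and 0.03. The probe at -0.90 was the brighter, with processed signals of 23.5 and 15.5, and passed 2 SD of a single spot. The other had signals of 9.24 and 11.6. ZNF114 gave 0.527 and 0.392 (-0.43), ZNF414 0.640 and 0.478 (-0.42) and ZNF177 0.631 and 0.474 (-0.41). These 5 genes kept their sign in every setting and lay within 2 SD, but with spike-in scaling the last 4 came to between -0.04 and -0.02.

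ZNF254, of the ZNF91 group, measured 1.35 in mock cells and 1.01 with HOXA5 short RNA. Its log2 difference of -0.42 passed 2 SD, and both of its compared probes were lower. The dim probe, with processed signals of 18.1 and 14.2, read -0.66. The bright one, with 128 and 139, read -0.18, within 2 SD of a single spot. The sign held in every setting, but the value was -0.18 by the brightest probe and -0.17 with no filter. It was -0.13 with normexp and -0.03 with spike-in scaling. ZNF787 measured 9.42 and 7.51, a difference of -0.33 that became 0.07 with spike-in scaling. ZNF253, at 1.53 and 1.19 (-0.36), ZNF180 at 0.711 and 0.570 (-0.32) and ZNF100 at 0.482 and 0.389 (-0.31) also turned positive with spike-in scaling. None of the 10 lowest genes had its spot in an uneven zone.

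Of the 10 highest genes, all but ZNF444 were dim. ZNF547 measured 0.296 in mock cells and 0.434 with HOXA5 short RNA, a log2 difference of 0.55. ZNF417 gave 0.263 and 0.373 (0.51), and ZNF841 0.258 and 0.355 (0.46). ZNF473, whose protein is a component of the U7 snRNP in histone mRNA processing, gave 0.390 and 0.538 (0.46), and ZNF653, known as a corepressor of the nuclear receptor SF-1, 0.606 and 0.801 (0.40). Each lay within 2 SD. Normexp, whose offset shrinks the differences of dim probes, left ZNF547 at 0.01 and turned ZNF417 to -0.02 and ZNF473 to -0.00.

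ZNF304, a KRAB protein, measured 0.472 in mock cells and 0.616 with HOXA5 short RNA, a log2 difference of 0.39, or 0.02 with normexp. ZNF274, which recruits SETDB1 to the 3′ ends of zinc finger genes themselves, measured 0.496 and 0.625, a difference of 0.33 that turned to -0.03 with normexp. ZNF45 gave 0.552 and 0.715 (0.37) and ZNF729 0.372 and 0.448 (0.27). All 4 lay within 2 SD.

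ZNF444, a SCAN domain protein without a KRAB domain, was the 1 bright gene among the 10 highest. It measured 24.0 in mock cells and 31.3 with HOXA5 short RNA, a log2 difference of 0.38 that passed 2 SD and kept its sign in the settings that measured it. Its spot lay in an uneven zone, where 3 of 26 well-measured neighbors differed 2-fold, and after the local median of those neighbors was subtracted the difference was 0.33.

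The best measured members were the 4 printed in 10 spots. ZNF146 (also called OZF) consists of zinc fingers alone and is known for high expression in colorectal and pancreatic tumors. Its spots ran from 2.18 to 3.21 with a median of 2.61 in mock cells, and from 2.04 to 2.38 with a median of 2.18 with HOXA5 short RNA. All 9 spots used on the HOXA5 short array lay below the mock median, although the ranges overlapped. ZNF587, a primate KRAB gene known for binding HERV-K elements, ran from 5.80 to 7.71 (median 7.25) and from 5.46 to 6.70 (median 6.09), and all 10 HOXA5 short spots lay below the mock median. The log2 difference was -0.24 for ZNF146 (0.15 with spike-in scaling) and -0.24 for ZNF587 (0.16 with spike-in scaling).

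The other such genes, ZNF14 and ZNF565, were dimmer. ZNF14 ran from 0.523 to 0.970 (median 0.725) in mock cells and from 0.522 to 0.783 (median 0.647) with HOXA5 short RNA, and 6 of 8 HOXA5 short spots lay below the mock median. ZNF565 ran from 0.532 to 0.831 (median 0.594) and from 0.477 to 0.699 (median 0.570), with 8 of 10 below. The differences of -0.18 and -0.13 became 0.21 and 0.26 with spike-in scaling. Thus all 4 leaned lower, and the ranges of the arrays overlapped for each.

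Other genes measured this way give the scale. Over 435 genes whose single compared probe was printed in 10 spots, the median log2 difference was -0.05 with an SD of 0.16. Of these genes, 7.82% lay as low as ZNF146 or lower, 8.51% as low as ZNF587, 16.1% as low as ZNF14 and 27.6% as low as ZNF565. Averaging 10 spots narrows the spot error, and 46.0% of these 435 genes passed 2 SD, as 3 of the 4 members did. With scaling to the array median the 4 differences were -0.15 for ZNF146, -0.14 for ZNF587, -0.09 for ZNF14 and -0.03 for ZNF565.

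**Figure D4:**
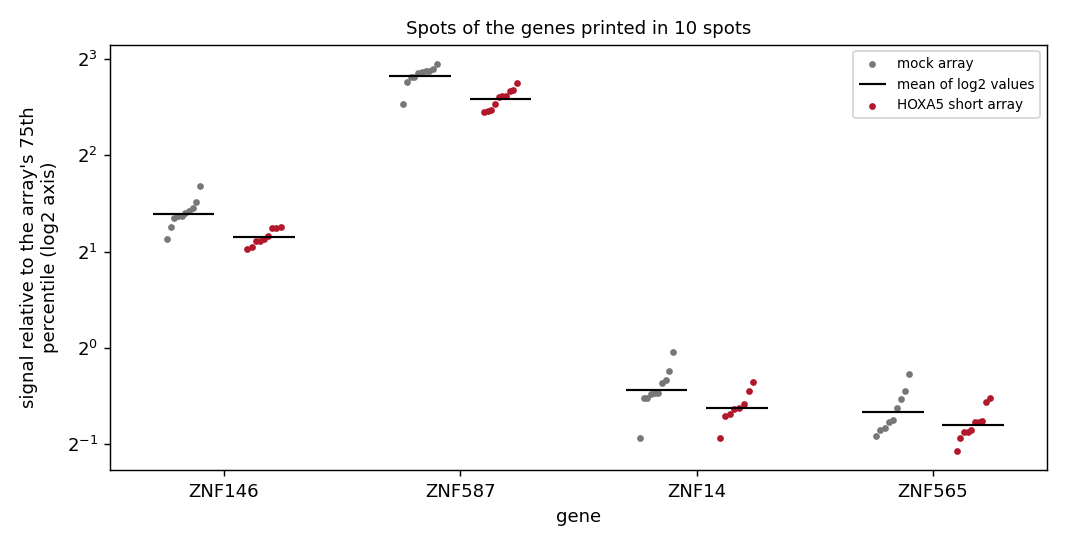
Signals of single spots relative to the array's 75th percentile (y axis, log2 scale) for the 4 genes printed in 10 spots (x axis), with mock spots in gray, HOXA5 short spots in red and the mean of log2 values as a black bar. The HOXA5 short bar lies below the mock bar for each gene, by 0.13 to 0.24 on the log2 scale, and the spots of the arrays overlap for each.

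ZNF587 and ZNF417 are close relatives that bind the same kind of element, and they read apart, at -0.24 and 0.51. The first rests on 10 spots and the second on 1 dim spot, with signals of 9.36 and 16.4 on the arrays, and the difference of ZNF417 was within 2 SD of such spots and vanished with normexp.

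Of the other members of known function, ZNF85, ZNF675 and ZNF175 were detected and lay within 2 SD. ZNF85, of the ZNF91 group, measured 0.495 in mock cells and 0.429 with HOXA5 short RNA (-0.21, or 0.19 with spike-in scaling). ZNF675, an inhibitor of TRAF6 signaling, measured 0.298 and 0.310 (0.05, or -0.05 with normexp), and ZNF175, known for suppressing HIV-1 in macrophages, 0.634 and 0.633 (-0.00). ZNF331, a gene rearranged in thyroid adenomas, ZNF382, a KRAB repressor, and ZNF649 were detected on neither array.

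Where a gene had 2 probes, these often read different ways. Of the 118 genes, 100 had 1 compared probe and 18 had 2. Both probes had the same sign in 8 genes and opposite signs in 10. This split rests on the scaling, and in some genes 1 probe lay close to 0, as in ZNF544 (0.02) and ZNF600 (0.02). The share over all genes with 2 probes is not given here, so the split is not a trait of the family. The gap between the probes of a gene had a median of 0.29 and ran from 0.02 for ZNF865 to 0.93 for ZNF302, so it was as wide as most of the differences that the family showed. It reached 0.5 in 5 genes, among them ZNF776, whose probes read -0.31 and 0.56, and ZNF497, with -0.23 and 0.59. ZNF865 stood out by the match of its probes, at 0.24 and 0.27, and its difference of 0.26 kept its sign in every setting.

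**Figure D5:**
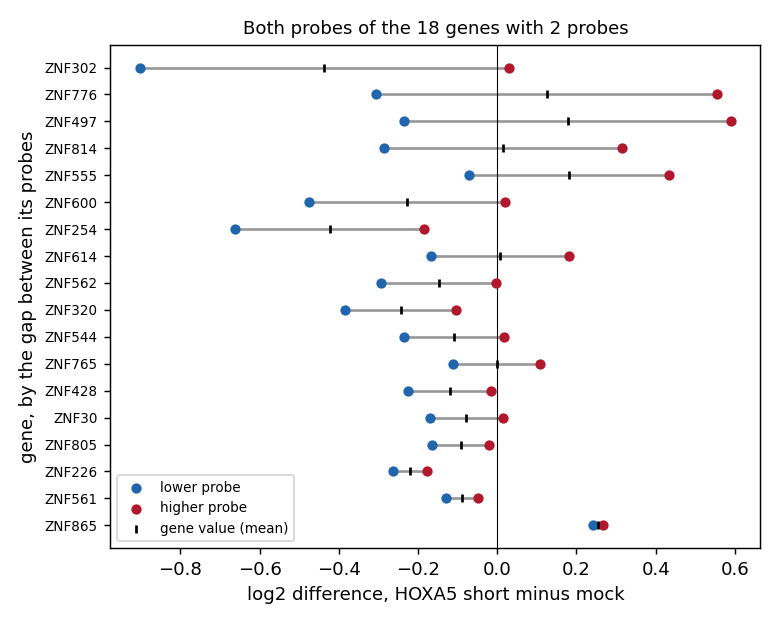
Log2 differences (x axis, HOXA5 short minus mock) of the lower probe (blue), the higher probe (red) and their mean (black tick) for the 18 genes with 2 compared probes, ordered by the gap between them (y axis). The gap runs from 0.02 for ZNF865 to 0.93 for ZNF302, and in 10 genes the probes lie on opposite sides of 0.

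The partners through which KRAB proteins silence genes were compared as a list of 30 genes, of which 29 were measured on both arrays. Their median log2 difference was -0.08, from -0.52 to 0.25, with 17 of 29 below the median of all genes. None was 2-fold changed. The list median lay 0.05 below the median of all genes, and this turned to 0.01 above it with normexp and without a filter. TRIM28, the common corepressor, had signals of 2303 and 3048 and a log2 difference of 0.10, which was positive in every setting. SETDB1 was at -0.24 over 3 probes from -0.45 to -0.13, and at 0.15 with spike-in scaling.

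Of these partners, 4 passed 2 SD, where 12.2% of all genes did. ATRX, a chromatin remodeler that deposits histone H3.3 with DAXX at heterochromatin, was lower by all 3 of its compared probes, from -0.61 to -0.44 with a mean of -0.50. It was lower in every setting, though only at -0.25 with normexp and -0.11 with spike-in scaling. CHD3, of the NuRD complex, was at -0.52 with its spot in an uneven zone, and at -0.13 with spike-in scaling. RBBP7, a histone-binding subunit, was at -0.15, which would not pass 2 SD of a single spot. CBX1, a heterochromatin protein, was at 0.25, but its 3 probes ran from -0.13 to 0.90, 1 of them lay in an uneven zone, and without the zones it turned negative, as it did by its brightest probe. TASOR, of the HUSH complex, was at -0.33 and MORC2, its partner, at 0.12, both within 2 SD. TASOR turned to 0.07 with spike-in scaling.

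Zinc finger genes of chromosome 19 with other names covered a similar range. Of 29 on the array, 11 were compared, and their median was -0.09, from -0.38 for ZFP30, a KRAB gene, to 0.28 for ZFP36, which is no KRAB gene and encodes the mRNA decay factor tristetraprolin. None passed 2 SD. PEG3, ZIM2 and ZIM3, of the imprinted region around PEG3, stayed below the detection limit on both.

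As a check of the labels, the HOXA5 probe read 39.4 in mock cells and 346 with HOXA5 short RNA, which is 2.83 on the log2 scale, from 1.91 to 3.23 across the other settings. Nothing in the files says that this probe tells the short transcript from HOXA5 mRNA. Of 11 colon epithelial markers, 7 were detected on both arrays, among them EPCAM, KRT8, KRT18 and CDH1, while CDH17, VIL1, KRT20 and LGALS4 were not. No leukocyte or endothelial marker was detected on both arrays. Of the 4 fibroblast markers, COL1A1 was, at signals of 16.7 and 22.6.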

How the data were processed

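Both arrays were read from the deposited scanner output, in which, per the file headers, Agilent Feature Extraction 11.5.1.1 gives each spot's intensity on a linear scale after background correction, on a grid annotated to hg19:GRCh37:Feb2009. The authors also deposited log2 values centered per probe, used here as an alternative. Both arrays lay on 1 slide and shared 1 scan. The processed signal was converted to log2, outlier spots were left out, the spots of a probe were averaged, and the 75th percentile over the 50599 non-control probes was subtracted. Of these, 17938 were well above background on both arrays and were compared. Accessions were matched without versions to RefSeq records of GRCh38.p14, which named 15304 of them. Members and ZNF genes elsewhere needed an NM_ accession, while the other genes compared could be reached by any matched accession. Because that build differs from the grid's, gene coordinates are not printed, and only promoters carry coordinates. ZNF symbols ending in a letter were not members.

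Each group holds 1 array, which allows no test and limits the precision, so folds and medians are descriptions. A gene was named if it was among the 10 highest or 10 lowest members, had a textbook role, was detected on 1 array only, or was among the largest changes of the KRAB partner list. Genes past 2 SD, genes printed in 10 spots, 2-probe genes and neighbors were named after their values were seen. The members, lists and rules were chosen with earlier results of these data known. Scripts were tested on simulated data. Python 3.11.15, pandas 2.3.3, scipy 1.17.1, R 4.3.3 and limma 3.58.1 (normexp, offset 50) were used.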

Additional observations from a re-analysis of the deposited data

How the results depend on the processing

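No paired analysis was possible because each group has 1 array and no result comes from a test. A log2 value counts as moved past 0.21, the SD of a single-spot difference, and a count past 1.5 times. The family median moved in 1 setting, to 0.32 with spike-in scaling. Members at least 2-fold higher numbered 4 with no filter and 1 in the authors' deposited values, and those at least 2-fold lower 9 without a filter and 1 at a 1.5-fold threshold. Over all genes, 77 were higher and 31 lower. Higher and lower genes numbered 321 and 9 with spike-in scaling, 37 and 8 with normexp, 216 and 108 in the deposited values, 446 and 564 without a filter, 35 and 14 for signals above the median, 333 and 192 at 1.5-fold and 21 and 6 at 3-fold. Zone removal gave 48 and 18, and lower genes numbered 20 with median scaling and 17 after the local median was subtracted. Thresholds and filters change counts by construction; otherwise the cause was not tested. Of the 118 genes, 88 changed sign in at least 1 setting, 69 of them with spike-in scaling and 21 with median scaling. These scalings add a positive constant to every gene and so flip only values below 0, by construction. Normexp, which adds no constant, turned 26. Over all settings, 69 of the 75 members below 0 and 19 of the 43 above 0 changed sign. The count past 2 SD with median scaling was added after seeing the data. Low signal limits these values.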

Other observations

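ZNF symbols that end in a letter were left out of the family by its rule, and including them gave 122 genes with a median log2 difference of -0.08. Without a filter on detection, the 230 genes with a probe had a median of -0.16 and the 21613 genes with any probe -0.11, a gap of 0.06. The 228 ZNF genes on other chromosomes stood at -0.11 there. Undetected signals lie within the noise, and 45.7% of the family was detected on neither array, against 36.9% of all genes. This gap is therefore not separate evidence on the family's expression, and its cause was not tested.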
